A study of Homo sapiens with 12 samples.

Results

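The 10 genes described here belong to the G1/S control system: the D-type cyclins CCND1, CCND2 and CCND3, the E-type cyclins CCNE1 and CCNE2, the cyclin D kinase CDK6, and the CDK inhibitors CDKN1A, CDKN1B, CDKN2A and CDKN2C. They were taken by symbol from the deposited count table, where all of them were found among 27046 genes, and 9 of them passed the expression filter (over 1 CPM in at least 3 libraries, CPM being the read count after division by the size of its library). The cells were BT549, a human triple-negative breast cancer line, and the study asked how blocking FRA-1 alters the response of such cells to the PARP inhibitor olaparib. Knockdown cells received pooled siRNAs against FOSL1, which encodes FRA-1, together with pooled siRNAs against JUN, whose product pairs with FRA-1 in the AP-1 transcription factor. Control cells received a non-targeting siRNA pool. In each arm the cells were given olaparib or its solvent DMSO, for 48 h per the labels. The 12 libraries fall into 4 groups of 3: knockdown cells with olaparib, knockdown cells with DMSO, control cells with olaparib, and control cells with DMSO. All 4 groups were transfected, and no untransfected cells were among them. The design uses 1 cell line, 1 time point and 1 mixture of siRNAs, so FOSL1 and JUN cannot be told apart. The labels do not say that replicates came from separate cultures, so the p-values measure the spread between these libraries, which may be technical.

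Library totals ran from 13763179 to 39715900 counts. FOSL1 and JUN RNA fell in the knockdown arm: the knockdown effect was -2.57 for FOSL1 and -1.95 for JUN on the log2 scale under olaparib (adjusted p = 3.15e-14 and 1.81e-09), and -1.43 and -1.38 in DMSO (adjusted p = 8.50e-11 and 7.80e-08). The mesenchymal marker VIM stood at 2383 to 4147 CPM, the oestrogen receptor gene ESR1 and the progesterone receptor gene PGR at no more than 0.0696 CPM, and the blood and endothelial markers CD3E, PECAM1, CDH5 and VWF at no more than 0.0642 CPM, while the luminal factor GATA3, often low in such lines, stood at 22.2 to 38.2 CPM. FOXA1 and PTPRC stayed at or under 0.181 and 0.471 CPM, and KRT8 and CD14 at 1.18 to 2.09 and 0.706 to 2.57 CPM. Replicate libraries differed beyond sampling noise in every group. The chi-square per degree of freedom between 2 replicates was 5.06 to 13.1 in the knockdown arm and 1.77 to 3.97 in the control arm. Taken over the genes tested, the knockdown arm thus carried more scatter, but this does not hold for each member. The coefficient of variation of CCND3 and CDKN1A was largest in control cells with DMSO, at 14.1% and 8.48%.

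D-type cyclins bind CDK4 or CDK6 and start the phosphorylation of the RB protein, E-type cyclins bind CDK2 and complete it, and the release of E2F factors from RB then switches on the genes of DNA replication. Inhibitors of the Cip/Kip family, p21 (CDKN1A) and p27 (CDKN1B), bind cyclin-CDK2 complexes, whereas INK4 inhibitors, p16 (CDKN2A) and p18 (CDKN2C), bind CDK4 and CDK6 themselves. AP-1 is known to act at the CCND1 promoter. BT549 is described as lacking functional RB. Many of these proteins are set by degradation rather than by RNA, and the present values are RNA only.

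Olaparib and knockdown moved CCND1, CCNE1, CCNE2 and CDKN1A in opposite directions. Olaparib lowered the RNA of CCND1, CCNE1 and CCNE2 and raised that of CDKN1A and CDKN1B in both arms. Knockdown raised CCND1, CCNE1 and CCNE2 and lowered CDKN1A and CDKN2C with either DMSO or olaparib. CCNE2 showed the largest of these changes, 2.06-fold higher in knockdown cells than in control cells under olaparib and 2.09-fold higher in DMSO. CDKN2A, the member with the most RNA, did not pass the test in any comparison.

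**Figure D1:**
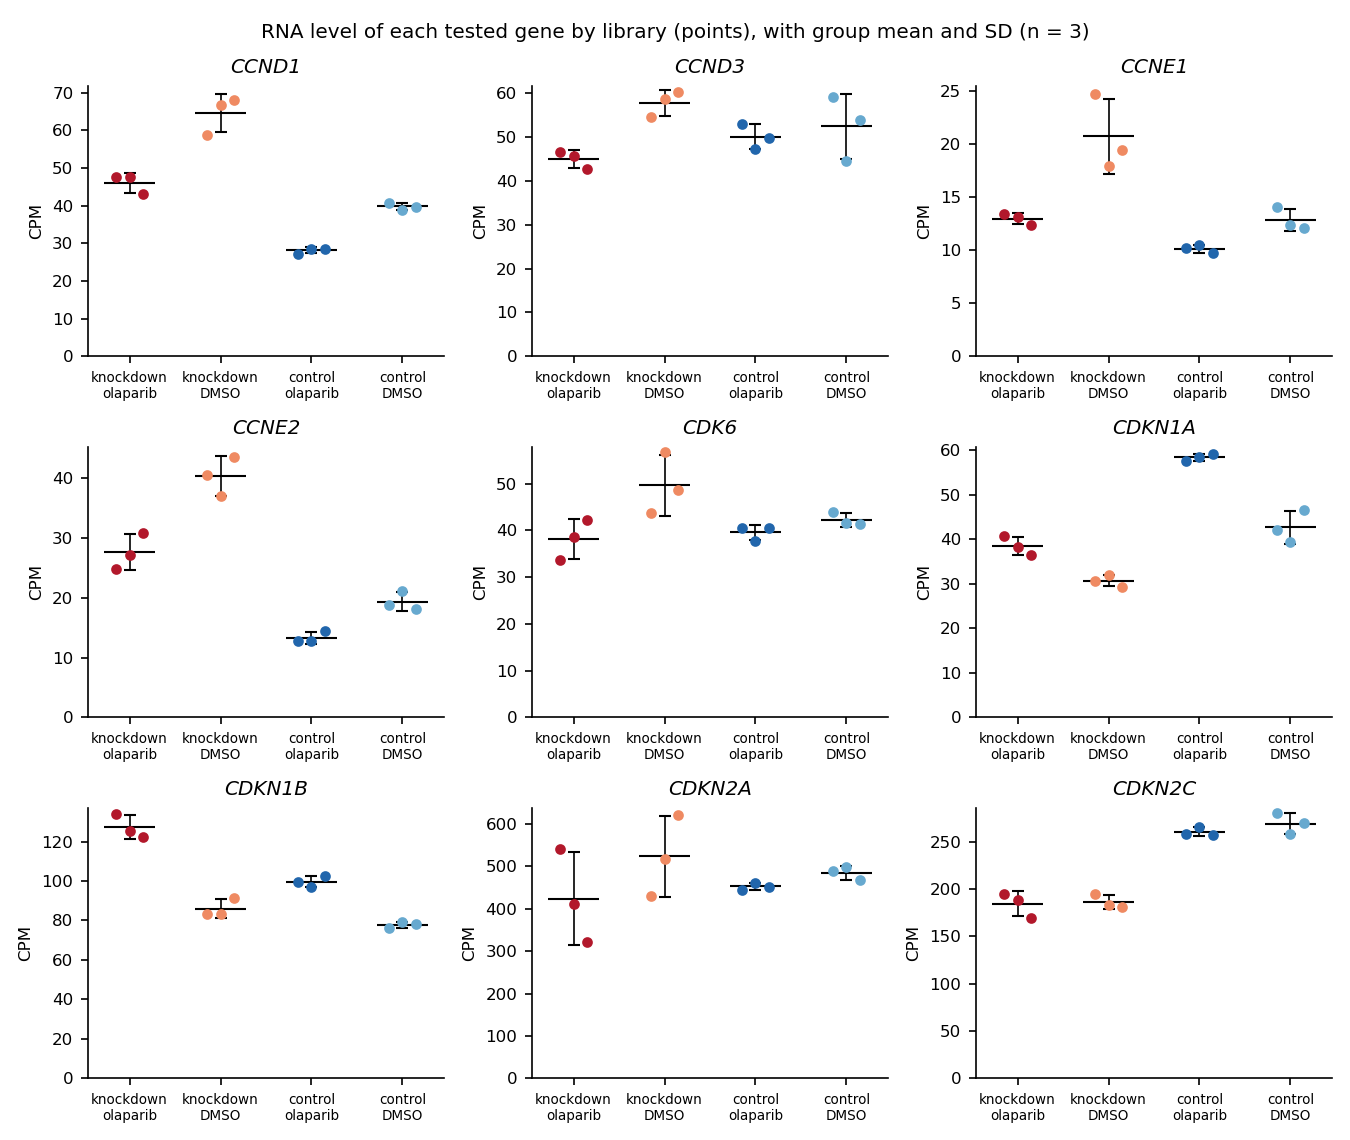
RNA level of each of the 9 tested genes (CPM, vertical axes starting at 0) in the 12 libraries, as points by group, with the group mean and SD as bars (n = 3). The 3 knockdown libraries with DMSO are the highest group for CCND1, CCNE1 and CCNE2, the 3 control libraries with olaparib are the highest for CDKN1A, and the CDKN2A points of the knockdown arm spread from 321 to 622 CPM.

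Counted over the test (edgeR quasi-likelihood, Benjamini-Hochberg adjusted p below 0.05 over 12122 genes), olaparib changed 7 of 9 genes in knockdown cells, 2 up and 5 down, where 48.0% of all genes tested changed, 24.1% up and 24.0% down. In control cells olaparib changed 5 of 9, 2 up and 3 down, against 46.8% of all genes, 23.6% up and 23.2% down. Knockdown changed 6 of 9 under olaparib, 4 up and 2 down, against 38.3% of all genes, 19.0% up and 19.3% down. In DMSO it also changed 6 of 9, again 4 up and 2 down, against 29.9% of all genes, 14.7% up and 15.2% down. The CPM of the 2 groups did not overlap for 7 of 9 members with olaparib in knockdown cells (51.1% of all genes tested) and 7 of 9 in control cells (60.1%), and for 7 of 9 with knockdown under olaparib (50.3%) and 6 of 9 in DMSO (41.2%). Each count lies above the background, and that for olaparib in control cells lies nearest to it. The list of 9 genes was chosen with earlier results of these data known. The median absolute log2 fold change of the 9 genes was 0.38 for olaparib in knockdown cells and 0.34 in control cells, against 0.21 and 0.22 over all genes tested. For knockdown it was 0.36 under olaparib and 0.48 in DMSO, against 0.18 and 0.15 over all genes.

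RefSeq promoter windows, the 250 bases before a gene's start on GRCh38.p14, were found for 7 of the 10 genes, 13 windows in all; CCND1, CCND2 and CCNE2 were not matched. A pair of stretches is shown because they belong to members that moved in opposite directions under both treatments, CCNE1 and CDKN1A. Capitals mark the GC box (letters GGGCGG on either strand), which 42.6% of all 35116 RefSeq windows of that length hold. The CCNE1 stretch lies on the plus strand at chr19:29811741-29811897, from 250 to 94 bases before the start, and the CDKN1A stretch on the plus strand at chr6:36678560-36678657, from 154 to 57 bases before it. Both lie outside the exons of the GENCODE annotation.
CCNE1: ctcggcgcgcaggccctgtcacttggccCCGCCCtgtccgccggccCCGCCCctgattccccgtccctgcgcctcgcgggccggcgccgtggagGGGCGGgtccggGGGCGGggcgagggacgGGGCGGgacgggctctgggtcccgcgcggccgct
CDKN1A: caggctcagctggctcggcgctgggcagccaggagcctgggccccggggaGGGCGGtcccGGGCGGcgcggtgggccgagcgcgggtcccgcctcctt
The CCNE1 stretch, of 157 bases, holds 5 such boxes and the CDKN1A stretch, of 98 bases, holds 2. The full windows of 250 bases hold 7 for CCNE1 and 4 for CDKN1A. None of the 13 windows holds the AP-1 letters TGACTCA (4.2% of all windows do), the CRE letters TGACGTCA (1.65%), any of the E2F forms TTTCCCGC, TTTGGCGC, TTTCGCGC and TTTGCCGC (2.79%) or the FOXO letters TGTTTAC (2.98%), each searched on both strands. The letters CCAAT occur 2 times in the CDKN1B window, 1 time in a CCND3 and a CDKN2C window each and, as ATTGG on the other strand, 1 time in a further CCND3 window, and 32% of all windows hold them. A missing match says only that these letters are not in these windows.

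Levels between genes were compared per gene length, as RPKM (CPM per 1000 bases). CDKN2A had the highest level in all 4 groups, at 204 ± 52.9 RPKM in knockdown cells with olaparib, 252 ± 46.4 in knockdown cells with DMSO, 218 ± 4.04 in control cells with olaparib and 233 ± 7.85 in control cells with DMSO (SD, n = 3 each). CDKN2C came next, then CDKN1B, and no libraries of these neighbours overlapped in any group. CDK6 was the lowest of the tested genes, at 3.25 ± 0.370, 4.23 ± 0.557, 3.37 ± 0.136 and 3.60 ± 0.130 RPKM in the same order of groups. The middle of the order shifted with the group. In control cells with olaparib it ran CDKN1A, CCND3, CCND1, CCNE1, CCNE2, and only the last pair overlapped. In knockdown cells with DMSO it ran CCND3, CCND1, CCNE2, CDKN1A, CCNE1, where CCND1 overlapped CCNE2 and CDKN1A overlapped CCNE1. Thus CDKN1A lay above every cyclin in control cells with olaparib, and below 3 of them in knockdown cells with DMSO. In knockdown cells with olaparib CDKN1A overlapped CCND3 and CCND1 overlapped CCNE2, and in control cells with DMSO CCND3 overlapped CDKN1A and CCNE2 overlapped CCNE1. The kinases that the members bind had levels of 89.3 to 113 RPKM for CDK4 and 28.2 to 37.7 RPKM for CDK2 over the 12 libraries, so CDK4 RNA exceeded CDK6 RNA in every library.

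**Figure D2:**
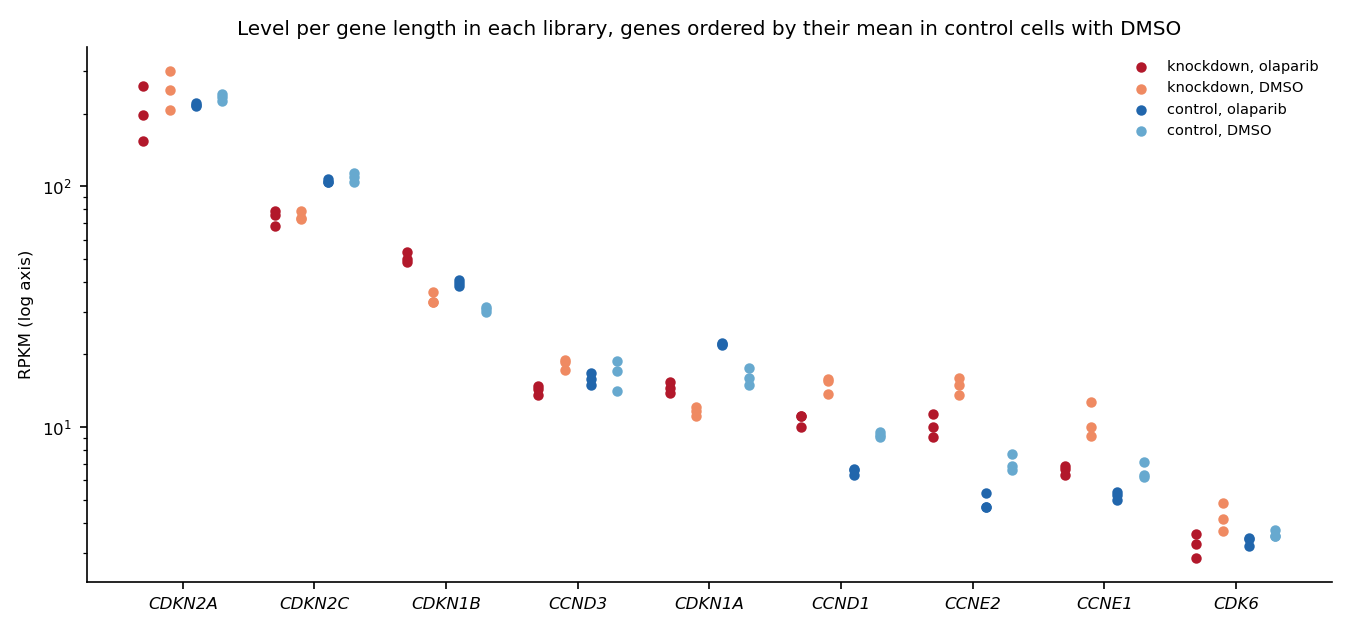
Level per gene length (RPKM, log axis) of the 9 tested genes in each of the 12 libraries, coloured by group and ordered by the mean in control cells with DMSO. The 3 inhibitors CDKN2A, CDKN2C and CDKN1B stand above all cyclins in every group, and CDK6 stands lowest.

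CCND1 (Entrez 595) encodes cyclin D1, the D-type cyclin most often tied to growth factor signalling. Its level was 47.6, 47.6 and 43.0 CPM in the 3 libraries of knockdown cells with olaparib and 58.7, 66.8 and 68.1 CPM in those with DMSO. In control cells it was 27.2, 28.6 and 28.6 CPM with olaparib and 40.8, 38.9 and 39.7 CPM with DMSO. All 4 groups were separate, with knockdown cells in DMSO highest and control cells under olaparib lowest. Olaparib lowered CCND1 by nearly the same factor in both arms, to 0.713-fold of DMSO in knockdown cells (log2 fold change -0.49, SE 0.065, adjusted p = 5.95e-06) and to 0.707-fold in control cells (log2 fold change -0.50, SE 0.070, adjusted p = 1.27e-05). Knockdown raised it 1.64-fold under olaparib (log2 fold change 0.71, SE 0.069, adjusted p = 1.22e-07) and 1.63-fold in DMSO (log2 fold change 0.70, SE 0.066, adjusted p = 1.33e-07). The olaparib effect in knockdown cells minus that in control cells was 0.012 on the log2 scale, with a 95% interval of -0.19 to 0.21. Fewer expressing cells and less RNA per cell cannot be told apart in these bulk libraries, here or for any other gene.

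CCND3 (Entrez 896), which encodes cyclin D3, was the other D-type cyclin with measurable RNA. It had 46.7, 45.7 and 42.8 CPM in knockdown cells with olaparib and 54.5, 58.6 and 60.3 CPM in knockdown cells with DMSO, groups that did not overlap. The values were 53.1, 47.4 and 49.9 CPM in control cells with olaparib and 59.2, 44.5 and 53.9 CPM in control cells with DMSO, where the second DMSO library was below all olaparib libraries. Olaparib lowered CCND3 in knockdown cells (log2 fold change -0.36, SE 0.082, adjusted p = 0.00139), and the change in control cells did not pass the test (log2 fold change -0.065, SE 0.083, adjusted p = 0.548). The difference between these effects was -0.30 with a 95% interval of -0.54 to -0.051, and it did not pass after adjustment over all genes (adjusted p = 0.140). Neither knockdown effect passed, -0.15 (adjusted p = 0.160) under olaparib and 0.14 (adjusted p = 0.206) in DMSO on the log2 scale. The last of these depended on the first control library with DMSO, without which it was 0.24 (adjusted p = 0.0483).

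CCND2 (Entrez 894), cyclin D2, was listed at 2, 0 and 1 counts in knockdown cells with olaparib and at 0, 0 and 1 counts in knockdown cells with DMSO. Control cells had 0, 1 and 2 counts with olaparib and 1, 1 and 0 counts with DMSO. No library thus had more than 2 counts. CCND2 did not pass the expression filter, so no fold change is given. CDK7, the kinase that activates other CDKs and is used by all cycling cells, was also listed at 0 to 3 counts per library, so a near-zero row of this table need not mean that a gene is silent.

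CCNE1 (Entrez 898) encodes cyclin E1, the partner of CDK2 at the start of S phase. It had 13.4, 13.1 and 12.4 CPM in knockdown cells with olaparib and 24.8, 18.0 and 19.5 CPM in knockdown cells with DMSO. The corresponding values in control cells were 10.2, 10.5 and 9.73 CPM with olaparib and 14.1, 12.4 and 12.1 CPM with DMSO. Knockdown cells with DMSO stood above all other groups, with the first library highest, and knockdown cells with olaparib overlapped control cells with DMSO. Olaparib lowered CCNE1 to 0.633-fold in knockdown cells (log2 fold change -0.66, SE 0.10, adjusted p = 3.50e-05) and to 0.790-fold in control cells (log2 fold change -0.34, SE 0.12, adjusted p = 0.0212). Knockdown raised it 1.29-fold under olaparib (log2 fold change 0.36, SE 0.11, adjusted p = 0.0151) and 1.60-fold in DMSO (log2 fold change 0.68, SE 0.11, adjusted p = 5.78e-05). CCNE1 had the fewest counts of the tested members, 157 to 568 per library, and the calls of its smaller effects were lost without single libraries, while the log2 fold changes stayed at -0.38 to -0.27 for olaparib in control cells and at 0.33 to 0.39 for knockdown under olaparib. The olaparib effect in control cells did not pass without the third control library with olaparib (adjusted p = 0.0778) or without the first control library with DMSO (0.0985). The knockdown effect under olaparib did not pass without the second knockdown library with olaparib (0.0538) or the third control library with olaparib (0.0641).

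CCNE2 (Entrez 9134), cyclin E2, the second partner of CDK2, changed in the same directions, and by more with knockdown. Its level was 24.9, 27.2 and 30.8 CPM in knockdown cells with olaparib and 40.6, 37.0 and 43.6 CPM in knockdown cells with DMSO. For control cells the values were 12.7, 12.7 and 14.5 CPM with olaparib and 18.8, 21.1 and 18.1 CPM with DMSO. No 2 groups overlapped, and even the lowest knockdown library, under olaparib, was above the highest control library. Knockdown raised CCNE2 2.06-fold under olaparib (log2 fold change 1.04, SE 0.096, adjusted p = 6.37e-08) and 2.09-fold in DMSO (log2 fold change 1.06, SE 0.090, adjusted p = 3.01e-08). These changes were larger in size than those of 97.3% and 97.9% of all genes tested. Olaparib lowered CCNE2 to 0.682-fold in knockdown cells (log2 fold change -0.55, SE 0.086, adjusted p = 3.58e-05) and to 0.692-fold in control cells (log2 fold change -0.53, SE 0.10, adjusted p = 2.82e-04). Between the arms the olaparib effect differed by -0.021 (95% interval -0.30 to 0.26). In RefSeq, CCNE2 overlaps INTS8 and NDUFAF6, which had 899 to 3158 and 173 to 538 counts per library, and how reads shared between overlapping genes were counted is not given in the sources used here.

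CDK6 (Entrez 1021), the kinase that D-type cyclins share with CDK4, had 33.6, 38.6 and 42.3 CPM in knockdown cells with olaparib and 43.7, 56.7 and 48.7 CPM in knockdown cells with DMSO. In control cells the values were 40.5, 37.7 and 40.6 CPM with olaparib and 44.1, 41.5 and 41.3 CPM with DMSO. The olaparib libraries lay below the DMSO libraries in both arms, by a wider gap and with more scatter in knockdown cells. Olaparib lowered CDK6 in knockdown cells (log2 fold change -0.38, SE 0.087, adjusted p = 0.00142), and the change in control cells did not pass (log2 fold change -0.093, SE 0.090, adjusted p = 0.417). The difference between the arms was -0.29 (95% interval -0.55 to -0.030, adjusted p = 0.173). Under olaparib the knockdown effect was -0.054 (adjusted p = 0.664). The rise with knockdown in DMSO was at the edge of the threshold (log2 fold change 0.24, SE 0.088, adjusted p = 0.0484) although the groups overlapped at 43.7 and 44.1 CPM. It did not pass without the second knockdown library with DMSO (0.14, adjusted p = 0.261), without the third (adjusted p = 0.0643), without any 1 of the 3 control libraries with DMSO (0.0730, 0.132 and 0.133) or the 3 control libraries with olaparib (0.0651, 0.0612 and 0.0615), without the second knockdown library with olaparib (0.0654), or with DESeq2 (0.0508).

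CDKN1A (Entrez 1026) encodes p21, an inhibitor known to be induced after DNA damage. Its level was 40.7, 38.2 and 36.5 CPM in knockdown cells with olaparib and 30.7, 31.9 and 29.3 CPM in knockdown cells with DMSO. In control cells it was 57.5, 58.5 and 59.1 CPM with olaparib and 42.1, 39.3 and 46.4 CPM with DMSO. Control cells with olaparib stood well above all other libraries, and knockdown cells with DMSO below them. Olaparib raised CDKN1A 1.26-fold in knockdown cells (log2 fold change 0.33, SE 0.069, adjusted p = 6.64e-04) and 1.37-fold in control cells (log2 fold change 0.45, SE 0.067, adjusted p = 2.22e-05). Knockdown lowered it to 0.658-fold under olaparib (log2 fold change -0.60, SE 0.067, adjusted p = 7.36e-07) and to 0.718-fold in DMSO (log2 fold change -0.48, SE 0.069, adjusted p = 2.83e-05). The olaparib effects of the arms differed by -0.13 (95% interval -0.33 to 0.076, adjusted p = 0.461).

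CDKN1B (Entrez 1027), p27, the inhibitor that holds CDK2 in resting cells and is marked for degradation by SKP2, rose with olaparib and did not fall with knockdown. It had 134, 125 and 122 CPM in knockdown cells with olaparib and 83.1, 83.5 and 91.4 CPM in knockdown cells with DMSO. Control cells had 99.7, 97.0 and 102 CPM with olaparib and 76.1, 79.1 and 78.2 CPM with DMSO. No 2 groups overlapped, and knockdown cells with olaparib were highest. Olaparib raised CDKN1B 1.48-fold in knockdown cells (log2 fold change 0.56, SE 0.054, adjusted p = 1.10e-07) and 1.28-fold in control cells (log2 fold change 0.36, SE 0.055, adjusted p = 3.52e-05). Knockdown raised it 1.28-fold under olaparib (log2 fold change 0.35, SE 0.054, adjusted p = 4.03e-05), and in DMSO the difference fell just outside the threshold (log2 fold change 0.15, SE 0.055, adjusted p = 0.0523). That DMSO effect passed when the first or the third knockdown library with olaparib was left out (adjusted p = 0.0404 and 0.0407), when the first or the second knockdown library with DMSO was (0.0453 and 0.0487), and with upper-quartile scaling (0.0405). The interaction was 0.20 (95% interval 0.043 to 0.37), which did not pass (adjusted p = 0.124).

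CDKN2A (Entrez 1029) encodes p16, the founding INK4 inhibitor, and from another first exon a second protein, p14ARF, and its single row cannot separate the 2 transcripts. It had 539.7, 411 and 321 CPM in knockdown cells with olaparib and 429, 518 and 622 CPM in knockdown cells with DMSO. In control cells the values were close together, 445, 462 and 450.5 CPM with olaparib and 489, 499 and 467 CPM with DMSO. The knockdown libraries scattered on both sides of all control libraries, and the coefficient of variation was 25.9% under olaparib and 18.4% in DMSO there, against 1.85% and 3.36% in control cells. Olaparib effects of -0.31 in knockdown cells and -0.10 in control cells did not pass (adjusted p = 0.207 and 0.688), nor did knockdown effects of -0.094 under olaparib and 0.11 in DMSO (adjusted p = 0.728 and 0.698). With an SE of 0.18, the 95% interval of the olaparib effect in knockdown cells, -0.72 to 0.11, still includes changes as large as those of CCND1. Without the first knockdown library with olaparib that effect was -0.51 (adjusted p = 0.0235), and with a fit of the control groups alone the olaparib effect there was -0.097 (adjusted p = 0.0473). The antisense neighbour CDKN2B-AS1 on chromosome 9 had 66 to 204 counts per library, and the strand setting of the counting is not given in the sources used here.

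CDKN2C (Entrez 1031) encodes p18, an INK4 inhibitor and a described E2F target, and it changed with knockdown but did not pass with olaparib. Its level was 195, 189 and 169 CPM in knockdown cells with olaparib and 195, 183 and 180.4 CPM in knockdown cells with DMSO. Control cells had 258, 266 and 257 CPM with olaparib and 279.8, 258 and 269 CPM with DMSO. All 6 knockdown libraries lay below all 6 control libraries, and within each arm the olaparib and DMSO libraries overlapped. Knockdown lowered CDKN2C to 0.708-fold under olaparib (log2 fold change -0.50, SE 0.054, adjusted p = 5.48e-07) and to 0.691-fold in DMSO (log2 fold change -0.53, SE 0.054, adjusted p = 3.14e-07). The olaparib effects were -0.012 in knockdown cells (95% interval -0.13 to 0.10) and -0.047 in control cells (95% interval -0.16 to 0.065) (adjusted p = 0.868 and 0.490).

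**Figure D3:**
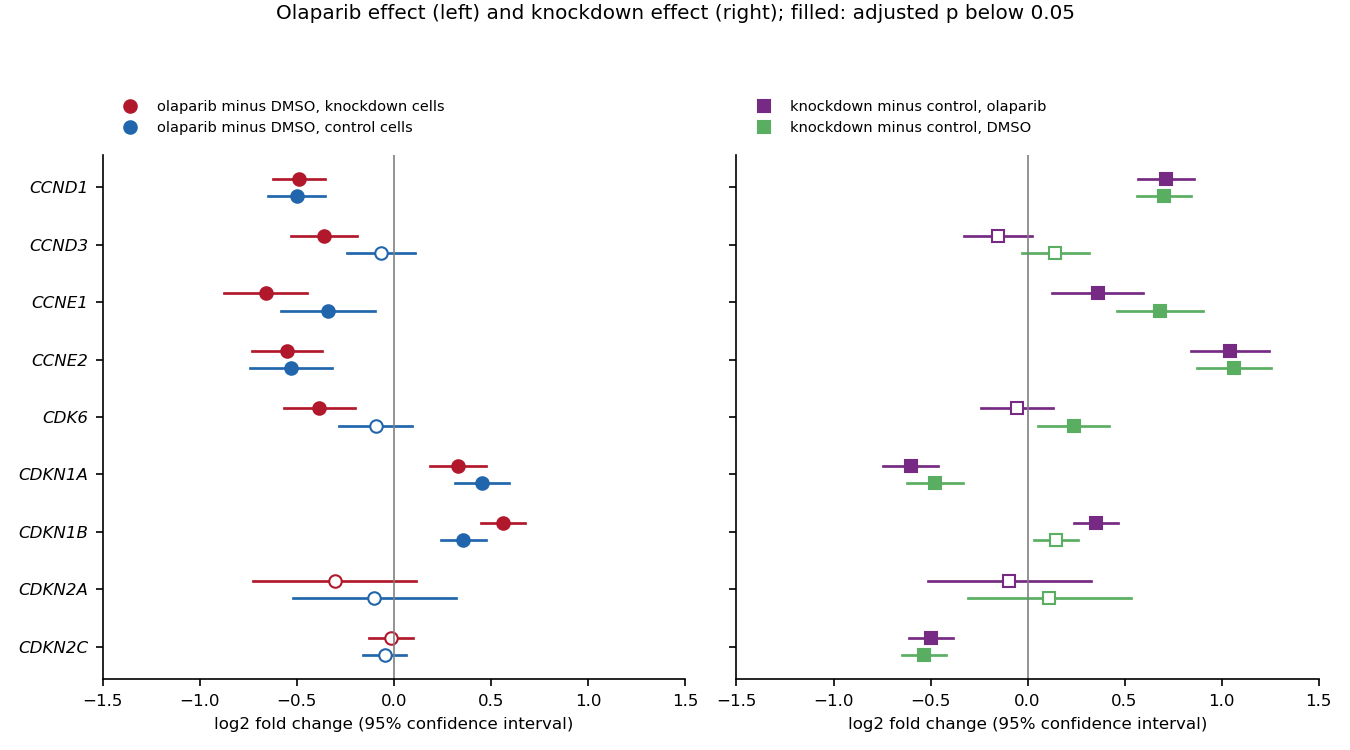
Log2 fold changes of the 9 tested genes with 95% confidence intervals, for olaparib against DMSO in each arm (left) and for knockdown against control under each treatment (right); filled symbols passed an adjusted p of 0.05. CCND1, CCNE1 and CCNE2 lie left of 0 for olaparib and right of 0 for knockdown in all 4 comparisons, CDKN1A lies on the opposite sides, and CDKN2C passed with knockdown but not with olaparib.

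Whether the knockdown altered the response to olaparib was tested as the difference between the olaparib effects of the 2 arms. None of the 9 genes passed in edgeR, where 5.69% of all genes did, and 0 passed with DESeq2; 3 had an unadjusted p below 0.05. These were CCND3 at -0.30, CDK6 at -0.29 and CDKN1B at 0.20, each a larger response in knockdown cells than in control cells, with adjusted p = 0.140, 0.173 and 0.124. CCNE1 had the largest value, -0.32, with an interval of -0.64 to 0.0036. For CCND1, CCNE2 and CDKN2C the values were close to 0, but the intervals reached 0.21, 0.26 and 0.19 on the upper side, so small differences between the arms were not detectable.

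Knockdown cells with olaparib were also set directly against control cells with DMSO, a comparison that shares its libraries with those above. It changed 5 of 9 genes, 3 up and 2 down, where 47.2% of all genes changed, 23.8% up and 23.4% down, and the groups did not overlap for 4 of 9, against 54.8% of all genes. CDKN1B showed the largest difference, 1.63-fold higher with both treatments (log2 fold change 0.71, SE 0.055, adjusted p = 4.27e-09), and both single effects on it were positive. CCNE2 remained higher (log2 fold change 0.51, SE 0.092, adjusted p = 1.62e-04), as did CCND1 (log2 fold change 0.21, SE 0.067, adjusted p = 0.0138), and CDKN2C was lower (log2 fold change -0.54, SE 0.054, adjusted p = 1.23e-07). CCNE1 and CDKN1A, where the single effects had opposite signs, differed by 0.022 and -0.15 and did not pass (adjusted p = 0.886 and 0.0819). CDKN1A passed without the first knockdown library with olaparib (adjusted p = 0.0441) or the second control library with DMSO (0.0296). The fall of CCND3 (log2 fold change -0.22, SE 0.083, adjusted p = 0.0388) did not pass without the first control library with DMSO (-0.12, adjusted p = 0.270), without the third of these (0.115), without the second or the third knockdown library with olaparib (0.0783 and 0.102), without the second control library with olaparib (0.0519) or in a fit of the 2 groups alone (0.0738). CCND1 did not pass without the second knockdown library with olaparib (0.0713) or the second control library with DMSO (0.0514), and the count of changed genes fell to 3 of 9 without that knockdown library.

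Summed per length, the members describe the balance of cyclin RNA and the RNA of CDKN1A and CDKN1B in each group, given here without a test because the sums were chosen with these values known. The D-type cyclins together reached 25.0 ± 1.25 RPKM in knockdown cells with olaparib, 33.3 ± 2.12 RPKM in knockdown cells with DMSO, 22.4 ± 0.729 RPKM in control cells with olaparib and 25.9 ± 2.56 RPKM in control cells with DMSO (SD, n = 3 each). CCND1 made up 42.9 ± 0.458% and 45.1 ± 0.742% of this sum in knockdown cells with olaparib and with DMSO, against 29.3 ± 1.71% and 36.0 ± 2.83% in control cells with olaparib and with DMSO. Per length, CCND3 was thus the larger part of this sum in every group, with CCND2 taken as listed. Before division by length, mean CCND1 was above CCND3 in knockdown cells with DMSO (64.5 against 57.8 CPM). It was slightly above in knockdown cells with olaparib (46.0 against 45.0 CPM). In control cells it was below, at 28.1 against 50.1 CPM with olaparib and 39.8 against 52.5 CPM with DMSO. The E-type cyclins together reached 16.8 ± 0.831 and 25.4 ± 2.44 RPKM in knockdown cells with olaparib and with DMSO, against 10.1 ± 0.209 and 13.7 ± 0.709 RPKM in control cells with olaparib and with DMSO. CDKN1A and CDKN1B together varied less between arms than between treatments: 65.0 ± 3.23 and 61.7 ± 1.23 RPKM with olaparib in knockdown and control cells, and 45.7 ± 1.46 and 47.0 ± 1.40 RPKM with DMSO in knockdown and control cells. Their share differed, since CDKN1B made up 77.6 ± 0.183% of the pair in knockdown cells with olaparib and 64.1 ± 0.588% in control cells with olaparib. The ratio of this pair to all D- and E-type cyclin RNA was 1.64, 1.52 and 1.51 in the libraries of knockdown cells with olaparib and 0.763, 0.795 and 0.778 in those with DMSO. In control cells it was 1.86, 1.91 and 1.92 with olaparib and 1.09, 1.24 and 1.24 with DMSO. No 2 groups overlapped in this ratio, which was higher with olaparib than with DMSO in each arm and lower in knockdown than in control cells under each treatment. The ratio leaves out the INK4 inhibitors CDKN2A and CDKN2C. Their sum was 278 ± 57.8 and 327 ± 43.5 RPKM in knockdown cells with olaparib and with DMSO. In control cells it was 323 ± 5.75 and 342 ± 7.61 RPKM in the same order, and each knockdown group overlapped both control groups.

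**Figure D4:**
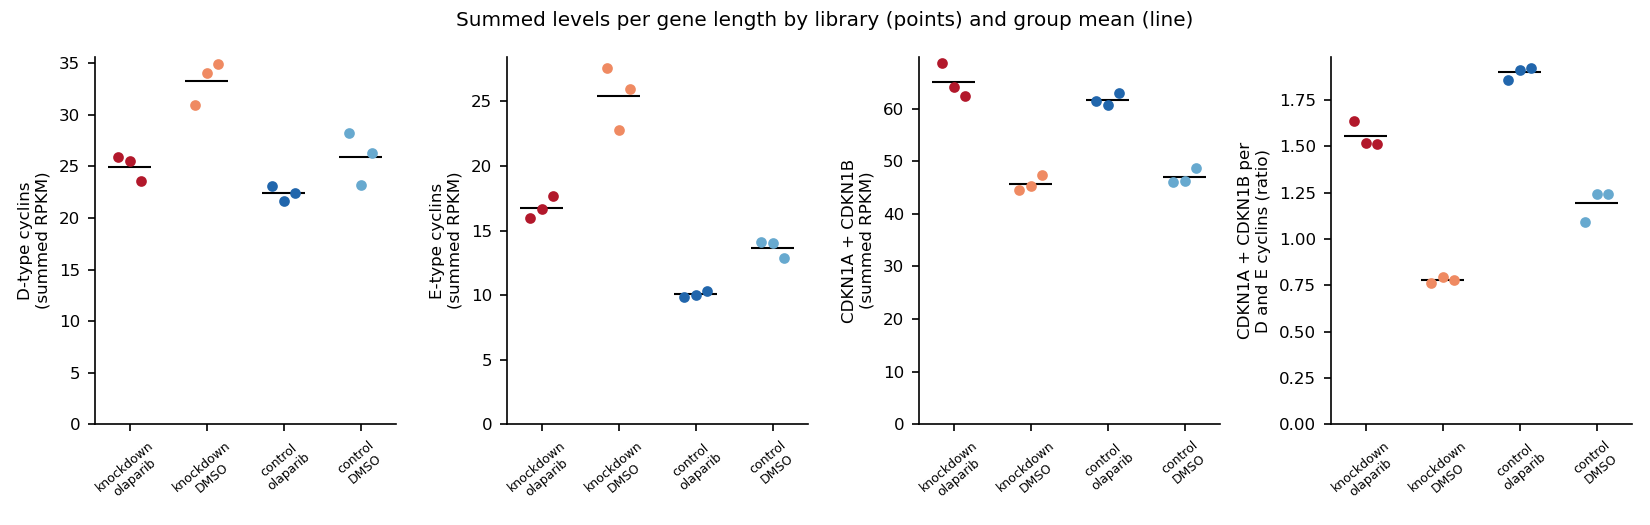
Summed level per gene length (RPKM) of the D-type cyclins, the E-type cyclins and the pair CDKN1A and CDKN1B, and the ratio of that pair to both cyclin classes, in each of the 12 libraries (points) with the group mean (line). The ratio is lowest in knockdown cells with DMSO, at 0.763 to 0.795, and highest in control cells with olaparib, at 1.86 to 1.92.

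The rest of the pathway was read from lists of its parts, with p-values adjusted over all genes tested. The counts stand against 24.1% of all genes up and 24.0% down with olaparib in knockdown cells, 23.6% up and 23.2% down with olaparib in control cells, 19.0% up and 19.3% down with knockdown under olaparib, and 14.7% up and 15.2% down with knockdown in DMSO. Of 8 tested partner kinases and activators, olaparib raised 4 and lowered 3 in knockdown cells and raised 3 and lowered 0 in control cells. CCNA2, cyclin A2, which follows cyclin E on CDK2, rose by 0.71 in knockdown cells and 0.53 in control cells on the log2 scale (adjusted p = 1.54e-08 and 5.61e-07), the opposite direction to CCNE1 and CCNE2. CDC25A, a phosphatase that activates CDK2, rose with olaparib (0.49 (adjusted p = 2.72e-05) in knockdown cells and 0.35 (adjusted p = 0.00142) in control cells) and with knockdown (0.40 (adjusted p = 3.17e-04) under olaparib and 0.26 (adjusted p = 0.0175) in DMSO). CDK4 fell with knockdown under olaparib (-0.17 (adjusted p = 0.0150)) and in knockdown cells with olaparib against control cells with DMSO (-0.15 (adjusted p = 0.0212)), and had -0.039 (adjusted p = 0.609) with knockdown in DMSO. CDK2 fell with olaparib in knockdown cells (-0.16 (adjusted p = 0.0330)) and had -0.090 (adjusted p = 0.228) in control cells, and it rose with knockdown in DMSO (0.17 (adjusted p = 0.0409)) and had 0.098 (adjusted p = 0.206) under olaparib. Over this list knockdown raised 1 and lowered 2 under olaparib and raised 2 and lowered 2 in DMSO.

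Of the other inhibitors, CDKN1C was listed at 0 in every library and CDKN2B and CDKN2D were tested. CDKN2B, p15, an INK4 inhibitor next to CDKN2A in the genome and known as a TGF-beta target, had 75.4, 69.1 and 71.1 CPM in knockdown cells with olaparib and 66.4, 68.7 and 78.3 CPM in knockdown cells with DMSO. Control cells had 38.1, 41.9 and 41.4 CPM with olaparib and 54.8, 58.9 and 55.2 CPM with DMSO. The olaparib groups were apart in control cells and overlapped in knockdown cells. Olaparib lowered CDKN2B in control cells (log2 fold change -0.48, SE 0.070, adjusted p = 2.12e-05) while the effect in knockdown cells was 0.0088 (adjusted p = 0.926), and this difference passed its test (0.48, adjusted p = 0.00663). Knockdown raised CDKN2B (0.83 (adjusted p = 1.57e-08) under olaparib and 0.34 (adjusted p = 7.04e-04) in DMSO), opposite to CDKN2C. CDKN2D, p19, rose with olaparib in control cells (0.27 (adjusted p = 0.0176)) and had 0.00074 (adjusted p = 0.996) in knockdown cells.

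Among 13 RB family, E2F and DP genes, olaparib raised 6 and lowered 2 in knockdown cells and raised 5 and lowered 3 in control cells, where 48.0% and 46.8% of all genes changed. The repressors E2F7 and E2F8 were among the largest rises in both arms, with E2F8 at 0.69 (adjusted p = 1.01e-05) in knockdown cells and 0.56 (adjusted p = 2.17e-04) in control cells. RB1 itself had 22.7 to 32.2 CPM, and olaparib lowered it in control cells (-0.30 (adjusted p = 0.0119)) with -0.15 (adjusted p = 0.170) in knockdown cells. Knockdown raised 5 and lowered 0 of the 13 under olaparib and raised 4 and lowered 1 in DMSO, among them the activator E2F1 (0.35 (adjusted p = 4.14e-04) and 0.27 (adjusted p = 0.00455)). Of 19 described E2F targets of G1/S, olaparib lowered 11 and raised 5 in knockdown cells and lowered 9 and raised 5 in control cells, and their median log2 fold changes were -0.15 and -0.22, against -0.0090 and -0.0076 over all genes. MCM6, a subunit of the replicative helicase, fell (-0.58 (adjusted p = 2.13e-08) in knockdown cells and -0.53 (adjusted p = 7.86e-08) in control cells), and CDT1, which loads that helicase and is removed after origins fire, rose (0.92 (adjusted p = 0.00110) and 1.06 (adjusted p = 4.78e-04) in the same arms). Knockdown raised 5 and lowered 1 of these targets under olaparib and raised 3 and lowered 0 in DMSO.

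Ubiquitin ligase parts that act on G1 cyclins or CDK inhibitors numbered 14. SKP2, the F-box protein that targets p27, had 20.9, 22.9 and 22.0 CPM in knockdown cells with olaparib and 39.8, 42.7 and 41.1 CPM in knockdown cells with DMSO, against 23.7, 20.8 and 20.9 CPM with olaparib and 45.8, 48.7 and 44.0 CPM with DMSO in control cells. The olaparib libraries of the arms overlapped and lay below all DMSO libraries, and SKP2 fell in knockdown cells (log2 fold change -0.91, SE 0.070, adjusted p = 6.48e-09) and in control cells (log2 fold change -1.08, SE 0.071, adjusted p = 5.92e-10). Its cofactor CKS1B rose instead (0.72 (adjusted p = 9.36e-08) in knockdown cells and 0.67 (adjusted p = 2.52e-07) in control cells), as did DTL, which directs CUL4 ligases to p21 and CDT1 (1.05 (adjusted p = 4.84e-10) and 1.08 (adjusted p = 2.54e-10) in the same arms). FBXW7, which targets cyclin E, fell with olaparib in control cells (-0.39 (adjusted p = 0.00202)) and rose with knockdown (0.87 (adjusted p = 2.18e-07) under olaparib and 0.42 (adjusted p = 9.85e-04) in DMSO). Over the list olaparib raised 4 and lowered 3 in knockdown cells and raised 4 and lowered 4 in control cells, close to the 48.0% and 46.8% of all genes that changed, and knockdown raised 2 and lowered 3 under each treatment. MDM2, a ubiquitin ligase outside this list, did not pass with olaparib (0.077 (adjusted p = 0.477) in knockdown cells and 0.045 (adjusted p = 0.702) in control cells) or with knockdown (0.17 (adjusted p = 0.120) under olaparib and 0.14 (adjusted p = 0.236) in DMSO), and passed in knockdown cells with olaparib against control cells with DMSO (0.22 (adjusted p = 0.0447)).

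Of 16 transcription factors described at the member genes, olaparib raised 5 and lowered 5 in knockdown cells and raised 5 and lowered 4 in control cells, where 48.0% and 46.8% of all genes changed. MYC, which is described to repress CDKN1A and CDKN2B and to activate CCND2, had 247, 238 and 229 CPM in knockdown cells with olaparib and 107, 109 and 104 CPM in knockdown cells with DMSO. In control cells it had 466, 438 and 434 CPM with olaparib and 160.2, 147 and 149 CPM with DMSO. The groups were all apart, with olaparib above DMSO in each arm, and MYC rose 2.23-fold in knockdown cells and 2.93-fold in control cells (adjusted p = 3.18e-12 and 4.04e-14). Knockdown lowered MYC, with effects of -0.91 under olaparib and -0.51 in DMSO on the log2 scale (adjusted p = 3.80e-11 and 2.18e-07). TCF7, a Wnt pathway factor described at CCND1, fell with olaparib (-1.78 (adjusted p = 1.32e-10) in knockdown cells and -1.54 (adjusted p = 2.20e-09) in control cells). TCF7L2, of the same family, rose with olaparib in control cells (0.46 (adjusted p = 2.57e-05)). In knockdown cells TCF7L2 averaged 24.8 CPM with olaparib and 22.7 CPM with DMSO. Knockdown raised 2 and lowered 4 of the 16 under olaparib and raised 3 and lowered 4 in DMSO.

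Genes of the later cell cycle moved with olaparib in the direction opposite to the G1 cyclins. Of 10 G2/M cyclins and kinases olaparib raised 9 and lowered 0 in each arm, TOP2A at 1.09 (adjusted p = 6.08e-10) and CDK1 at 0.93 (adjusted p = 2.12e-09) in knockdown cells, and PLK1 at 0.74 (adjusted p = 7.54e-08) and CDK1 at 0.55 (adjusted p = 1.77e-06) in control cells. Of 7 MuvB and late cell cycle factors olaparib raised 5 and lowered 0 in knockdown cells and raised 6 and lowered 1 in control cells, with FOXM1 at 0.47 (adjusted p = 1.68e-05) and 0.46 (adjusted p = 2.57e-05). The data used here hold no measure of the share of cells in each phase. The part of that share in the values of the G1 cyclins was not tested. Under olaparib knockdown raised 6 and lowered 1 of the 10 G2/M genes, and in DMSO it raised 1 and lowered 1; of the 7 MuvB and late factors it raised 2 and lowered 1 under olaparib, and raised 1 and lowered 1 in DMSO.

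**Figure D5:**
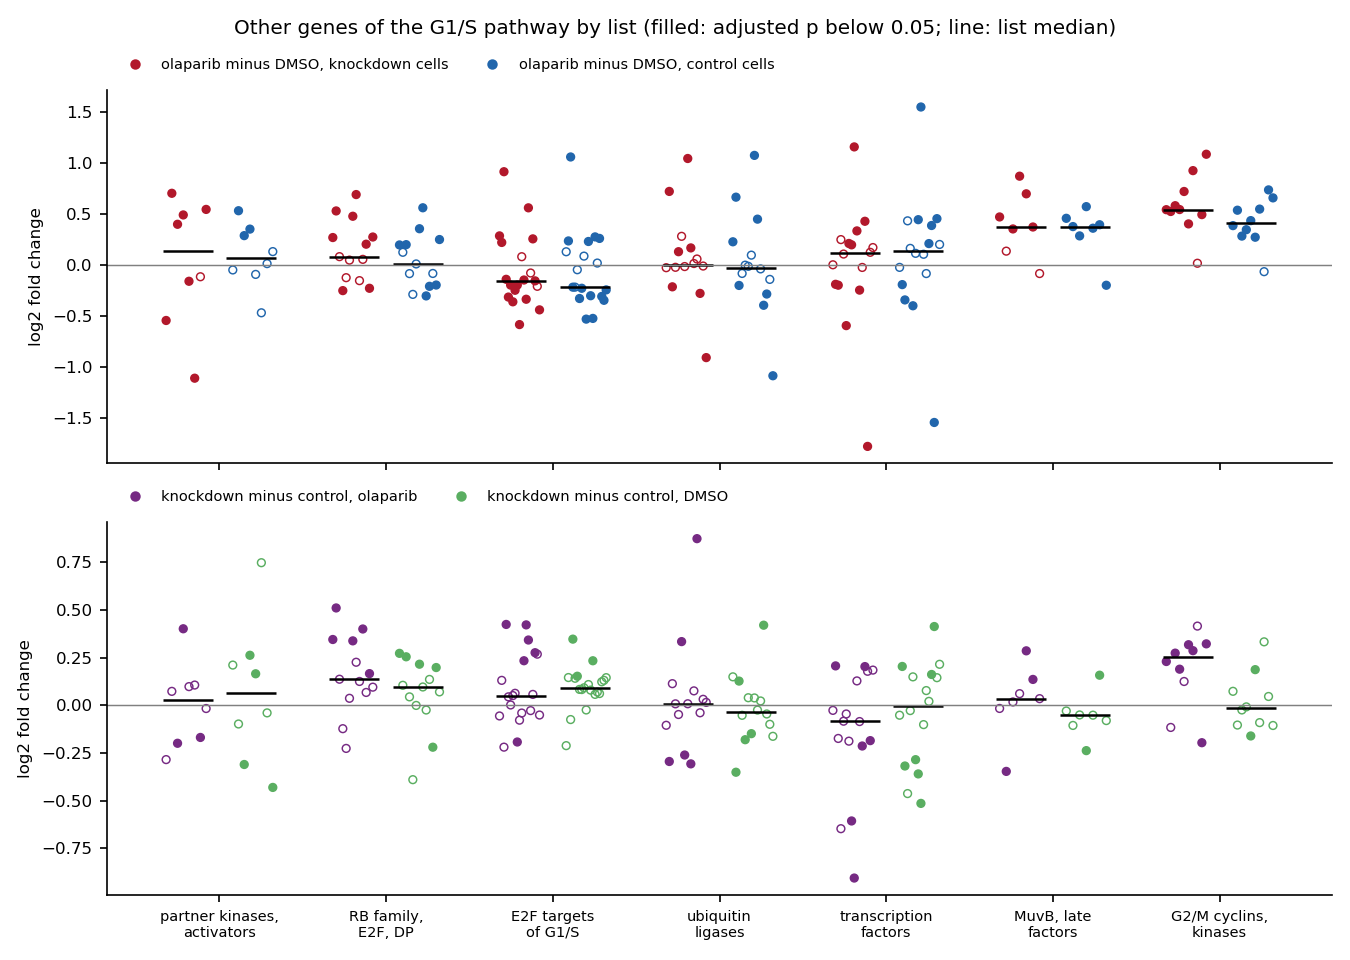
Log2 fold changes of the other tested genes of the pathway by list, for olaparib against DMSO (upper panel) and for knockdown against control (lower panel); each point is a gene, filled where the adjusted p was below 0.05, and the line is the list's median. Of the 10 G2/M genes, 9 passed above 0 for olaparib in each arm, and their medians were 0.54 in knockdown cells and 0.41 in control cells, and the 19 E2F targets of G1/S have medians of -0.15 and -0.22.

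The genes whose level over the 12 libraries was most like that of each member were sought among 9418 genes whose mean log2 CPM was at least 3, as a description with no p, since all points share the same libraries and treatments. CCND1 was closest to NACC2 (Pearson r = 0.991), CCNE2 to PARP9 (0.984) and CCNE1 to RFX5 (0.965). CDKN1A was closest to SRF, the serum response factor (0.989), CDKN1B to OIP5, a centromere assembly factor (0.980), with E2F7 close behind (0.975), and CDKN2C to COL13A1, a collagen (0.995). CDKN2A was closest to ATP5F1D, a subunit of ATP synthase (0.987), and MRPL41, a protein of the mitochondrial ribosome (0.976). CDKN2A passed in no comparison, and it varied most between replicates of the knockdown groups. Its coefficient of variation was 25.9% and 18.4% there with olaparib and DMSO, against 1.85% and 3.36% in control cells. These r values thus mainly follow differences between replicate libraries. CCND3 and CDK6 had looser neighbours, TARBP2 (0.938) and ZFHX4 (0.931).

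In the authors' deposited table the log2 fold changes of the 9 tested genes over the same 6 contrasts, 54 values, differed from those given here by no more than 0.0024, and at a false discovery rate of 0.05 the authors' deposited table made 0 calls that differed.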

How the data were processed

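RNA was sequenced from 12 BT549 libraries. The authors deposited raw counts per gene with a symbol and length for 27046 genes, and a table of log2 fold changes with false discovery rates (the p-value column used) for the same contrasts, per the file headers. The submitters' processing notes name bcl2fastq 2.20.0.422. Not given in the sources used here are the aligner, counter, genome build, strand setting and olaparib dose. Members, gene lists and sums were chosen with earlier results of these data known.

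Genes above 1 CPM in at least 3 libraries were kept (12122). An edgeR 4.0.16 quasi-likelihood model (R 4.3.3, TMM scaling, robust dispersion, full library sizes) was fitted over all 4 groups with 8 residual degrees of freedom. P-values (two-sided) were adjusted by Benjamini-Hochberg over all genes tested, with a threshold of 0.05. SEs derive from the F statistic. Levels are CPM on TMM-scaled library sizes (factors 0.937 to 1.05), and RPKM is that CPM per 1000 bases of the deposited length. Rows without a symbol (51, 4 of them tested) held 0.00223% to 0.00311% of counts. The test was tried on simulated counts.

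Named genes were all members in every comparison, from each pathway list up to 3 largest rises and 3 largest falls among those that passed, a fixed set (RB1, CDK4, CDK2, MDM2, SKP2, MYC, FOSL1 and JUN), and up to 3 genes most like each tested member over the 12 libraries (Pearson on log2 CPM, prior count 2); the text gives a selection, and some of these genes are not reported here. Alternatives were DESeq2 1.42.0, other scalings and filters, other fits and leaving out each library. Promoter sequences are from RefSeq (GRCh38.p14) and were set against GENCODE exons of GRCh38; no coordinates were taken from the count table.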

Additional observations from a re-analysis of the deposited data

Results flagged for a closer look

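No member met a rule for a closer look: groups of 3 libraries are too small for the outlier check, and no member's olaparib effect differed between the arms after adjustment. The 14 other genes given here are the knocked-down genes, genes of the pathway lists or cell markers, at most 3 in each direction from a list. Their olaparib effect in knockdown cells differed from that in control cells by the interaction test (edgeR, adjusted p below 0.05, n = 3 libraries a group). Of all genes tested, 5.69% passed it. Values here are the knockdown arm's log2 olaparib effect minus the control arm's.

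Of the 2 knocked-down genes, FOSL1 had -1.14 and JUN -0.57. Among regulators of the members, MYC had -0.39, CDKN2B 0.48, FBXW7 0.45, MNAT1, an assembly factor of the CDK-activating kinase, 0.41, KLF6 -0.25 and TCF7L2 -0.33. Among S and G2/M genes, RRM2 had 0.29, TOP2A 0.43, CDK1 0.38 and BUB1 0.30, all positive. Of the 10 G2/M genes 4 passed, all with a positive value, and the largest are given. The mesenchymal markers VIM and FN1 had -0.41 and -0.64.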

How the results depend on the processing

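The 9 tested genes gave 1071 log2 fold changes under up to 20 alternatives. Direction and call were kept in 1016; 25 lost their call, 11 gained one and 19 changed sign, none of these with a call. Olaparib changed 4 to 6 of the 9 members in control cells and 7 to 8 in knockdown cells. Of all genes it changed 4724 to 6699 and 4769 to 5900 (46.8% and 48.0% in the main fit). Knockdown changed 5 to 6 members under olaparib and 5 to 7 in DMSO. Of all genes it changed 3666 to 4843 and 2788 to 3939 (38.3% and 29.9% in the main fit). The combination changed 3 to 6 members with a library left out (5 with all), and 4727 to 5937 of all genes (47.2% in the main fit). The interaction changed 308 to 1130 of all genes (690 with all), while members changed stayed at 0. No pairing of the samples by replicate number was seen: same-numbered libraries deviated together with r of -0.269 to 0.196, and 2 of 18 were above 0.1. With 3 libraries a group this check cannot exclude a pairing. With the replicate number as a block, CDK6 with knockdown in DMSO lost its call (0.23, adjusted p = 0.0551), as it did with filterByExpr (0.24, 0.0509) and without robust dispersion (0.24, 0.0563), and no other member's call changed under the block. CDKN1B with knockdown in DMSO passed with DESeq2-type size factors (0.15, 0.0498).

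With no filter on low counts CDKN2C under olaparib in knockdown cells was 0.0014. Leaving out 1 library gave, for small effects, values on both sides of 0: CCND3 with olaparib in control cells -0.17 to 0.033, CDKN2C with olaparib in knockdown cells -0.051 to 0.043, CDKN2A with knockdown in DMSO -0.032 to 0.23 and under olaparib -0.30 to 0.069, CDK6 with knockdown under olaparib -0.12 to 0.022, the interactions of CCND1 -0.047 to 0.055, CCNE2 -0.096 to 0.054 and CDKN2C -0.0040 to 0.090, and CCNE1 in the combination -0.019 to 0.095. The cause was not tested. CCNE1 had the fewest counts of the tested genes, and each group has 3 libraries.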
